A study of Mus musculus with 6 samples.

Results

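The genes described here are 44 cell cycle genes, 22 that act in S phase and 22 that act in G2 or mitosis, out of 18011 gene symbols counted in any library of a single-cell RNA sequencing series on mouse blood progenitors. They were taken by name from 2 lists, and all 44 were present in the table of every sample. The tables write the symbols in capitals (MCM5, RRM2, TOP2A, MKI67, KIF23), and mouse spelling is used below. The series held 6 samples of Lin- haematopoietic stem and progenitor cells (HSPC), a preparation from which cells with mature lineage markers are removed. Of these, 3 were labelled Stag2 KO (KO1 to KO3) and 3 Stag2 wt (WT1 to WT3), from 3 mice of each genotype by the series' design text. Libraries were made from polyA RNA with the 10x Chromium 3' version 2 chemistry, which counts one molecule of RNA as one unique molecular identifier (UMI). The labels name neither the Cre line or promoter, the deleted part of Stag2, nor the age of the mice, and no further allele or treatment.

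In S phase the replicative helicase Mcm2-7 unwinds DNA, nucleotide enzymes supply its building blocks, and histone chaperones repackage the copies. In G2 and mitosis cyclin B with Cdk1 starts chromosome condensation and spindle assembly, the kinetochore attaches chromosomes to microtubules, and the anaphase-promoting complex ends mitosis. Stag2 is one of the cohesin genes, and cohesin is the ring complex that holds sister chromatids together until anaphase and also folds chromatin into loops. In the Lin- compartment some progenitors divide often, whereas many stem cells and maturing cells are quiescent.

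S phase genes are known targets of E2F factors and G2/M genes of the DREAM and B-Myb complexes, which bind CHR elements. Promoter sequences of 4 members are shown because each holds the letters of the element of its own phase and is among the most abundant of its list over all cells. Of the members, 19 S phase genes and 20 G2/M genes matched an entry by symbol in the RefSeq promoter table (GRCm38.p6). Only bases before the start of transcription in that table, called the start below, are printed, 5′ to 3′ on the strand of the gene. Capitals mark, on either strand, the E2F-type letters in the 2 S phase genes and the CHR letters in the 2 G2/M genes. Mcm7 had 2 windows in that table, the other is not printed, and the stretch shown lies inside the annotated gene (138164583 to 138172422). The annotated Ube2c gene begins at 164769898, so the end of its stretch, with the CHR letters, lies inside the gene. Mcm7 also holds CHR letters, left here in lower case (ttcgaa). The sequences were as follows, with Mcm6 at chr1:128359706-128359855 (minus strand), Mcm7 at chr5:138171884-138172088 (minus strand), Top2a at chr11:99024190-99024408 (minus strand) and Ube2c at chr2:164769860-164769928 (plus strand).
Mcm6: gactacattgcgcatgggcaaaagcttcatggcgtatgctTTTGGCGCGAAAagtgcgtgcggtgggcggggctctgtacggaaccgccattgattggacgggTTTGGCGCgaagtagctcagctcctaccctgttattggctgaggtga
Mcm7: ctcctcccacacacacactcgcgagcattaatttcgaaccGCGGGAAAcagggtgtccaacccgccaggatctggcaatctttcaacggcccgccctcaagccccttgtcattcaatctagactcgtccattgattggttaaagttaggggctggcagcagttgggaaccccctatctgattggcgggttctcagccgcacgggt
Top2a: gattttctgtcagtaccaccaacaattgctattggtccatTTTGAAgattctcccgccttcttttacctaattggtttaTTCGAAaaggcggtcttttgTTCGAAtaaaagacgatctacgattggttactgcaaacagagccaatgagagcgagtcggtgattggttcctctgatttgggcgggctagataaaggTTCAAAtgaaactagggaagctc
Ube2c: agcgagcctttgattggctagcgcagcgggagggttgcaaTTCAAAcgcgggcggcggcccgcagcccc

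E2F-type letters (TTTCGCGC, TTTGGCGC, TTTCCCGC or TTTGCCGC, both strands) stood in 6 of 19 S phase genes and in 1 of 20 G2/M genes with an entry. In Mcm6, a helicase subunit, 3 matches lay 110 to 47 bases before the start, with 2 of them overlapping, and in Mcm7 a single match lay 165 bases before it. By window, 27.3% of 22 S phase windows held these letters, 5.0% of 20 G2/M windows and 1.86% of all 32851 windows. CHR letters (TTTGAA or TTCGAA, both strands) stood in 8 of 20 G2/M genes and in 4 of 19 S phase genes. Top2a, the topoisomerase that untangles chromosomes, held 4 matches from 179 to 23 bases before its start. Ube2c, the E2 enzyme of the anaphase-promoting complex, held 1 match 29 bases before its start. CHR letters were found in 8 of 20 G2/M windows, 18.2% of 22 S phase windows and 17.1% of all windows. These matches describe letters only.

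Between 2604 and 4635 cells were deposited per KO sample and between 2783 and 7053 per WT sample. Median UMIs per kept cell were 5720 to 5918 in KO and 3458 to 4865.5 in WT, so the libraries differed in depth by genotype, and WT3 was the shallowest. Sample titles carried the prefix XA in the 3 KO samples and WT1, XG in WT2 and XN in WT3. Values with the prefix as a covariate and within the XA samples alone are given beside the results they touch. The covariate set XA against XG and XN joined. In both settings the genotype effect therefore compares the KO samples with WT1, so they are not separate checks. Stag2 checked the labels. Over all cells it stood at 25.3, 23.6 and 20.1 counts per 1000000 UMIs (CPM) in KO1 to KO3 and at 53.5, 43.5 and 42.8 CPM in WT1 to WT3 (log2 fold change -1.05, SE 0.12, adjusted p = 0.000542 by edgeR's quasi-likelihood test with Benjamini-Hochberg adjustment). Reads from undeleted exons of a deleted allele cannot be told apart from full-length transcripts in these counts.

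Cells were clustered without the cell cycle genes, and clusters were named only by marker lists, so "dendritic cell-like" means raised dendritic cell markers and no more. Testing was possible in 12 units with at least 20 cells in every sample, 9 named classes and the unnamed clusters 5, 10 and 21. The B cell-like class held 3 to 5 cells in each KO sample and was not tested. In each unit UMIs were summed per sample and the genotypes compared over the 3 samples of each. At least one member passed the test over all cells and in 7 of the 12 units, and none did in the other 5. In such sums fewer dividing cells and less RNA per dividing cell cannot be told apart, and shares of cells are therefore given beside them.

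In CPM summed over all cells the phase programmes differed little between genotypes. The 22 S phase members summed to 1765, 1669 and 1813 CPM in KO1 to KO3 and 1680, 1796 and 1776 CPM in WT1 to WT3. The 22 G2/M members summed to 999, 1001 and 1068 CPM in KO and 1037, 1124 and 1179 CPM in WT. Both sums overlapped between genotypes. Of the 44 members, all tested, 2 were lower in KO and 0 higher, beside 7.22% lower and 3.69% higher among the 12640 genes tested. The median log2 fold change was -0.05 for S phase members and -0.12 for G2/M members, against 0.01 for all genes.

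The 2 members that fell over all cells were Kif23 and Cenpa. Kif23 (chromosome 9, 61915905 to 61946774, minus strand, GRCm38), the kinesin of the central spindle needed for cytokinesis, stood at 19.8, 21.7 and 24.9 CPM in KO and at 37.3, 39.1 and 35.6 CPM in WT. Every KO sample lay below every WT sample, with means of 22.1 ± 2.56 and 37.3 ± 1.77 CPM (SD, n = 3 each), 1.69-fold lower in KO (log2 fold change -0.76, SE 0.09, adjusted p = 0.000953 by edgeR's quasi-likelihood test). When every sample was given the same class shares, its log2 fold change was -0.46 and still passed. Cenpa, the histone H3 variant that marks centromeres, stood at 97.1, 101 and 93.2 CPM in KO and 115, 111 and 130 CPM in WT (log2 fold change -0.29, SE 0.08, adjusted p = 0.0461 by the same test). The Cenpa call was lost when any one of the 6 samples was left out, with the prefix covariate, in the XA samples alone and with equal class shares.

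Beyond the members, 3 of 57 tested other G2/M genes fell over all cells, a lower share than the 7.22% of all genes tested. They were Lbr, a lamin B receptor of the inner nuclear membrane (log2 fold change -0.41), Kif22 (-0.29) and the kinase Nek2 (-0.46). Of 50 other S phase genes only Ccne1, cyclin E1, fell (-0.57), and of 33 cell cycle control genes none passed edgeR's test or DESeq2 in either direction, with 3 lower and 2 higher at an unadjusted p under 0.05 by edgeR. No count over all genes was made at that unadjusted threshold.

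The share of dividing cells was counted at matched depth. Each cell with at least 2000 UMIs was thinned to 2000, and a cell with 3 or more UMIs of the G2/M members was counted as G2/M-positive. Over all cells the G2/M-positive share was 15.7, 13.8 and 15.1% in KO1 to KO3 and 15.3, 15.5 and 21.2% in WT1 to WT3, so that the genotypes overlapped. With each class set to its mean share the values were 14.60, 13.73 and 14.97% in KO and 16.31, 15.39 and 20.86% in WT, without overlap. These values also weight shares of very small classes, such as 2 of 4 late neutrophil-like cells in WT2 and 0 of 3 B cell-like cells in KO2. How far the separation rests on such cells was not tested. Mean G2/M UMIs per thinned cell were 1.35 to 1.52 in KO and 1.60 to 2.08 in WT, without overlap, while mean S phase UMIs overlapped. The ratio of G2/M to S phase UMIs per thinned cell was 0.559 ± 0.0265 in KO and 0.682 ± 0.0192 in WT (SD, n = 3 each) and did not overlap. Thinning left out 4.78 to 6.30% of KO cells but 28.3% of WT3 cells, and the part of this in the shares was not tested.

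**Figure D1:**
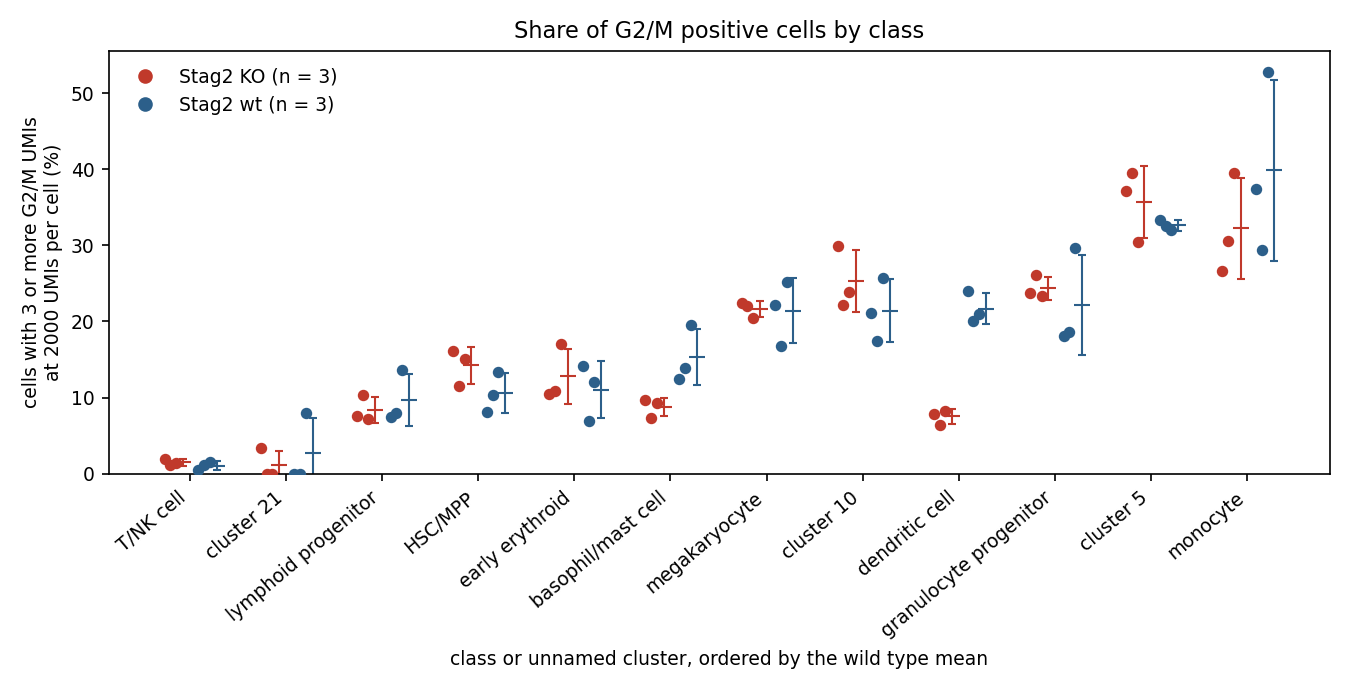
G2/M-positive cells (percent of cells thinned to 2000 UMIs, with 3 or more UMIs of the 22 G2/M members) per class or cluster, with points for the 3 KO and 3 WT samples and bars for mean ± SD. The dendritic cell-like class stands out, with KO samples at 6.44 to 8.27% and WT samples at 20.1 to 23.9%.

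The dendritic cell-like class had the most changed members of the 12 units. It gave 422, 326 and 411 scored cells in KO1 to KO3 and 305, 523 and 530 in WT1 to WT3. The G2/M-positive share was 7.82, 6.44 and 8.27% in KO and 23.9, 20.1 and 20.9% in WT. The means were 7.51 ± 0.954 and 21.7 ± 2.02% (SD, n = 3 each), a KO to WT ratio of 0.347, and the highest KO sample lay far below the lowest WT sample. The exact binomial 95% interval, which covers counting error only, ran from 5.44 to 10.8% in KO1 and from 19.3 to 29.1% in WT1. Without thinning the means were 12.7 and 31.1%, also without overlap. Cells at 3 UMIs or just below made up 3.68 to 4.38% of KO cells and 7.07 to 13.4% of WT cells.

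Cells in S phase only, with 3 or more S phase UMIs and fewer than 3 G2/M UMIs, were also rarer. Their share of dendritic cell-like cells was 9.95, 7.36 and 10.71% in KO and 18.03, 17.78 and 18.68% in WT. Unthinned the means were 18.6 and 23.4% and the genotypes overlapped, so this difference depended on the depth at which it was counted. Among G2/M-positive cells the mean number of G2/M UMIs was 12.8 ± 1.90 in KO and 11.7 ± 0.472 in WT, which overlapped. Per cell of the class the ratio of G2/M to S phase UMIs was 0.852 in KO and 1.05 in WT, without overlap. Median UMIs per cell overlapped, at 4162 to 4684 in KO and 3777 to 5397 in WT. In T/NK cell-like cells, in which few cells should divide, the G2/M-positive share was 1.49 ± 0.421% in KO and 1.07 ± 0.546% in WT at median depths of 3112 and 2935 UMIs. These were 2 to 10 cells per sample, with a mean of 4.0 to 11.6 G2/M UMIs each, and what gave rise to them was not tested.

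Gene by gene, 42 of the 44 members fell in the dendritic cell-like class, all 22 S phase members and 20 of 22 G2/M members. Among all 8841 genes tested there, 7.14% were lower and 4.14% higher. The median log2 fold change was -0.92 for S phase members and -1.09 for G2/M members, against 0.01 for all genes, and the members ranged from -1.65 to -0.38. In 43 of 44 members every KO sample lay below every WT sample, and the share of all genes separated in this way was not counted. Summed, S phase members stood at 806, 793 and 1019 CPM in KO and 1647, 1621 and 1526 CPM in WT, and G2/M members at 681, 754 and 1159 CPM in KO and 1850, 1722 and 1900 CPM in WT. KO3 was the highest KO sample in both sums and remained below every WT sample. Own dendritic cell markers overlapped between genotypes in this class, whereas the 12 granulocyte progenitor markers summed to 800 to 901 CPM in KO and 599 to 766 CPM in WT, with none of them at 0. The 18 early erythroid markers summed to 158 to 174 CPM in KO and 182 to 222 CPM in WT, and the 9 macrophage markers to under 5 CPM in every sample with C1qa, C1qc, Cd5l and Mertk at 0. The part of these cells in the result was not tested.

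Nucleotide supply and DNA replication came first in the S phase list. Rrm2, the regulated subunit of ribonucleotide reductase, stood at 24.4, 27.4 and 43.6 CPM in KO and at 79.9, 86.1 and 79.3 CPM in WT, 2.57-fold lower (log2 fold change -1.35, SE 0.17, adjusted p = 6.92e-05 by edgeR's quasi-likelihood test). Dut, which removes dUTP from the nucleotide pool, stood at 94.2, 85.2 and 122 CPM in KO and 221, 197 and 181 CPM in WT (log2 fold change -0.98, SE 0.13, adjusted p = 7.92e-05 by the same test). In both genes all KO samples lay below all WT samples. Tyms, thymidylate synthase, and Rrm1, the large reductase subunit, fell by 1.14 and 0.96 on the log2 scale. The Tyms value is uncertain where reads are shared with its annotated processed copy.

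The helicase and the replication fork followed. All 6 Mcm2-7 subunits fell, with log2 fold changes of -0.75 for Mcm2, -0.88 for Mcm3, -0.72 for Mcm4, -0.67 for Mcm5, -0.63 for Mcm6 and -0.83 for Mcm7. Mcm5 stood at 36.9, 42.6 and 49.5 CPM in KO and at 73.5, 68.9 and 63.6 CPM in WT (SE 0.14, adjusted p = 0.00361 by edgeR's quasi-likelihood test). Mcm6 and Mcm7, whose E2F-type letters are printed above, changed less than the median of all members (-1.003). Tipin, of the fork protection complex, stood at 59.8, 54.2 and 62.7 CPM in KO and 131, 110 and 112 CPM in WT (log2 fold change -0.98, SE 0.12, adjusted p = 5.41e-05 by the same test). Its KO samples differed little among themselves and sat at about the same distance from WT. Of the other fork genes, Cdc6, which loads the helicase, fell by 1.07 on the log2 scale, Cdc45 and Gins2, which activate it, by 1.02 and 0.89, Clspn, a checkpoint adaptor, by 1.10, the sliding clamp Pcna by 0.76, and the flap endonuclease Fen1 by 0.62. Pcna has 2 annotated processed copies and its counts are uncertain to that extent. Chromatin and repair genes of the list fell as well, Hells by 1.14, Chaf1b by 1.09, Uhrf1 by 1.06, Ung by 0.79 and the histone mRNA binding protein Slbp by 0.63 on the log2 scale.

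**Figure D2:**
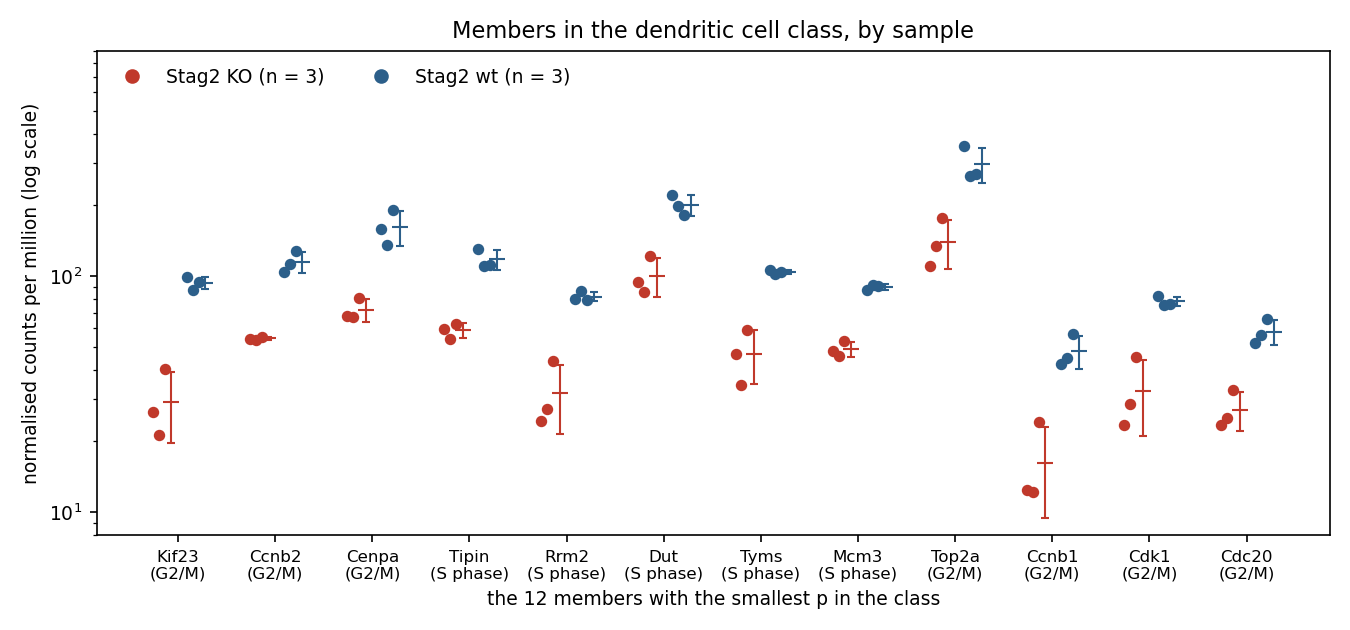
Summed level (CPM, log axis) of the 12 members with the smallest p in the dendritic cell-like class, one point per sample with mean ± SD for KO and WT. In each of the 12 genes the 3 KO samples lie below the 3 WT samples, and the gap is widest for Kif23, at 21.3 to 40.2 CPM against 87.3 to 98.6 CPM.

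Of the mitotic regulators, cyclin B2 had the second smallest p of all members. Ccnb2 stood at 54.3, 53.5 and 55.4 CPM in KO and at 104, 113 and 127 CPM in WT (log2 fold change -1.08, SE 0.12, adjusted p = 2.40e-05 by edgeR's quasi-likelihood test). Ccnb1, cyclin B1, stood at 12.5, 12.2 and 24.0 CPM in KO and 42.6, 44.7 and 56.7 CPM in WT (log2 fold change -1.54, SE 0.21, adjusted p = 0.000162 by the same test). The KO values of Ccnb2 were nearly equal. For Ccnb1, KO3 lay about as many CPM above the other KO samples as WT3 lay above the other WT samples. In proportion to the level, the KO3 step was the larger. Both cyclins have an annotated processed copy, so that part of their counts is uncertain. Their partner Cdk1 fell by 1.25 on the log2 scale, the mitotic kinases Plk1, Aurkb and Bub1 by 1.54, 1.11 and 1.14, and Cdc20, the activator of the anaphase-promoting complex, by 1.10. Ube2c, the E2 enzyme of that complex, stood at 79.7, 102 and 165 CPM in KO and at 234, 201 and 244 CPM in WT (log2 fold change -0.96).

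Chromosome, kinetochore and spindle genes completed the list. Kif23 had the smallest p and the largest fold of all members, at 26.4, 21.3 and 40.2 CPM in KO and 98.6, 87.3 and 94.6 CPM in WT, 3.19-fold lower (log2 fold change -1.65, SE 0.17, adjusted p = 1.13e-05 by edgeR's quasi-likelihood test). Cenpa stood at 67.8, 66.9 and 80.9 CPM in KO and 158, 135 and 190 CPM in WT (log2 fold change -1.15, SE 0.13, adjusted p = 4.08e-05 by the same test). For both genes the KO range was clear of the WT range. Top2a stood at 110, 134 and 175 CPM in KO and 356, 266 and 271 CPM in WT (log2 fold change -1.08, SE 0.15, adjusted p = 0.00012 by the same test). Mki67, the chromosome surface protein Ki-67, stood at 39.4, 45.0 and 61.3 CPM in KO and 108, 86.1 and 90.2 CPM in WT (log2 fold change -0.95, SE 0.15, adjusted p = 0.000503 by the same test).

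Top2a and Mki67 shared an order, with KO1 the lowest and WT1 the highest. Birc5, survivin, of the chromosomal passenger complex, fell by 1.12 on the log2 scale, the kinetochore proteins Cenpf and Cenpe by 0.86 and 0.80, and the spindle genes Tpx2, Hmmr, Kif11, Nusap1 and Tacc3 by 1.27, 1.10, 1.07, 0.92 and 0.72. The 2 members that did not pass, named after their values were seen, were the spindle genes Ckap2 and Aurka. Ckap2 stood at 5.48, 7.91 and 16.7 CPM in KO and 22.7, 17.8 and 19.2 CPM in WT (log2 fold change -0.94, adjusted p = 0.0504 by edgeR's quasi-likelihood test). Aurka, the spindle pole kinase, stood at 13.5, 17.6 and 24.0 CPM in KO and 19.2, 23.0 and 29.2 CPM in WT (log2 fold change -0.38, adjusted p = 0.324 by the same test) and was the only member with overlapping samples.

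Genes of the same phases outside the members moved alike in this class, where 7.14% of all genes tested were lower and 4.14% higher. Of 56 tested other G2/M genes 42 fell, with a median log2 fold change of -0.94, among them Spc24 of the Ndc80 kinetochore complex (-1.31), Cdca8, borealin (-1.16), the condensin subunit Smc2 (-1.03) and Hmgb2 (-0.88). Of 48 other S phase genes 28 fell, with a median of -0.81, among them thymidine kinase Tk1 (-1.41), the histone chaperone Nasp (-1.12) and geminin, Gmnn (-1.11). Of 32 cell cycle control genes 7 fell, with a median of -0.46, among them Mybl2, the B-Myb factor (-1.47), the Cdk1-inhibiting kinase Wee1 (-0.99), E2f1 (-0.85) and its partner Tfdp1 (-0.70).

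The class joined 4 clusters, and the differences were not evenly spread over them. Cluster 13, led by the MHC class II genes H2-Aa and Cd74 and by Cd209a, had G2/M-positive shares of 2.38, 2.27 and 5.83% in KO and 22.62, 15.50 and 21.53% in WT. Cluster 16, led by Siglech, Upb1 and Cd209d, had 6.67, 5.13 and 6.25% in KO and 25, 18.8 and 13.7% in WT. Cluster 18, led by Ly6d, Siglech and Cox6a2, had 30.1, 28.3 and 29.9% in KO and 41.3, 40.8 and 36.5% in WT. None of these 3 clusters overlapped between genotypes, with 53 to 167 scored cells per sample over the 4 clusters.

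In cluster 19, led by Siglech, Ly6d, D13Ertd608e and Ccr9, 1 of 118 KO1 cells was G2/M-positive and no cell of any other sample, which for the 54 WT1 cells allows a share of up to 5.56%. Cluster 18 held 17.3, 16.3 and 16.3% of the class in KO and 24.6, 27.1 and 31.5% in WT, and cluster 19 held 28.0, 32.8 and 27.5% in KO and 17.7, 20.7 and 15.1% in WT. In KO the class thus held less of the cluster with the highest G2/M-positive share and more of the one with the lowest. With each cluster at its mean share the class's G2/M-positive share was 9.35, 8.29 and 9.90% in KO and 22.1, 18.4 and 17.6% in WT, again without overlap.

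**Figure D3:**
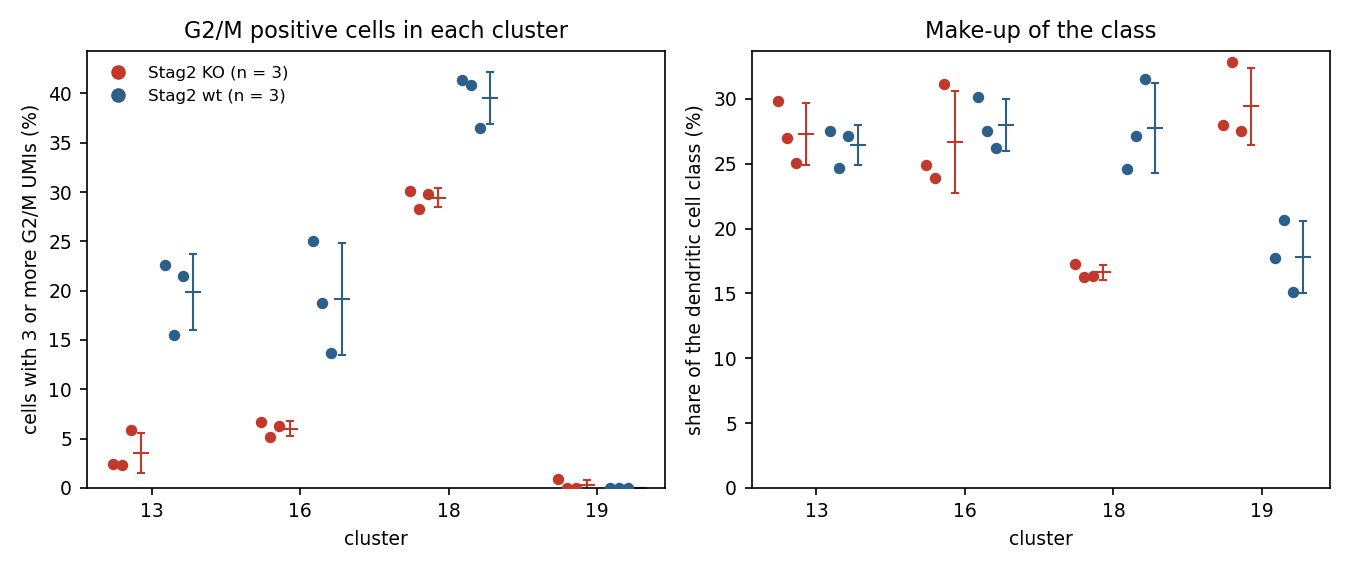
The 4 clusters of the dendritic cell-like class, with the G2/M-positive share (percent of cells at 2000 UMIs) in one panel and the percent of the class's cells in the other, one point per sample and bars for mean ± SD. Shares in clusters 13, 16 and 18 are lower in all KO samples than in all WT samples, and cluster 19 is near 0 in both genotypes.

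Fitted one by one, a choice made after the class result was seen, cluster 16 had 26 of 35 tested members lower in KO, beside 4.32% of all its genes, and cluster 13 had 15 of 32, beside 4.08%. In cluster 13 Top2a stood at 20.02, 15.08 and 89.5 CPM in KO and 264, 163 and 225 CPM in WT (log2 fold change -2.37, adjusted p = 0.000197 by edgeR's quasi-likelihood test), and KO3 was well above the other KO samples. In cluster 16 Rrm2 stood at 10.2, 20.7 and 26.8 CPM in KO and 98.7, 80.6 and 62.3 CPM in WT (log2 fold change -2.01, adjusted p = 0.000174 by the same test). In cluster 18, where 43 members were tested, only 2 were lower, beside 0.862% of its genes, Kif23 and Ccnb1. Kif23 stood at 76.4, 88.9 and 68.0 CPM in KO and 157, 182 and 145 CPM in WT there (log2 fold change -1.07, SE 0.19, adjusted p = 0.00334 by the same test), against medians of -0.31 for S phase and -0.15 for G2/M members. Ccnb1 stood at 43.7, 53.3 and 78.9 CPM in KO and 97.8, 120 and 115 CPM in WT (log2 fold change -0.93, adjusted p = 0.0416 by the same test). None of the 7 members testable in cluster 19 passed edgeR's test, also unadjusted, where 1.32% of genes were called in either direction.

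Across settings, between 35 and 42 members were lower in the dendritic cell-like class when one sample was left out, 32 with the title prefix as a covariate and 28 in the XA samples alone. The count fell to 21 at the coarser clustering (resolution 0.5) and to 7 when the cell cycle genes were kept in the clustering. In that last case the class itself held few dividing cells, 1.23% in KO and 3.67% in WT, still without overlap. Kif23, Ccnb2, Tipin and Dut passed in every setting run on the class, as did Rrm2 in every setting in which it was tested. The plot of changes by class shows the dendritic cell-like and basophil/mast cell-like classes as the units with most calls.

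**Figure D4:**
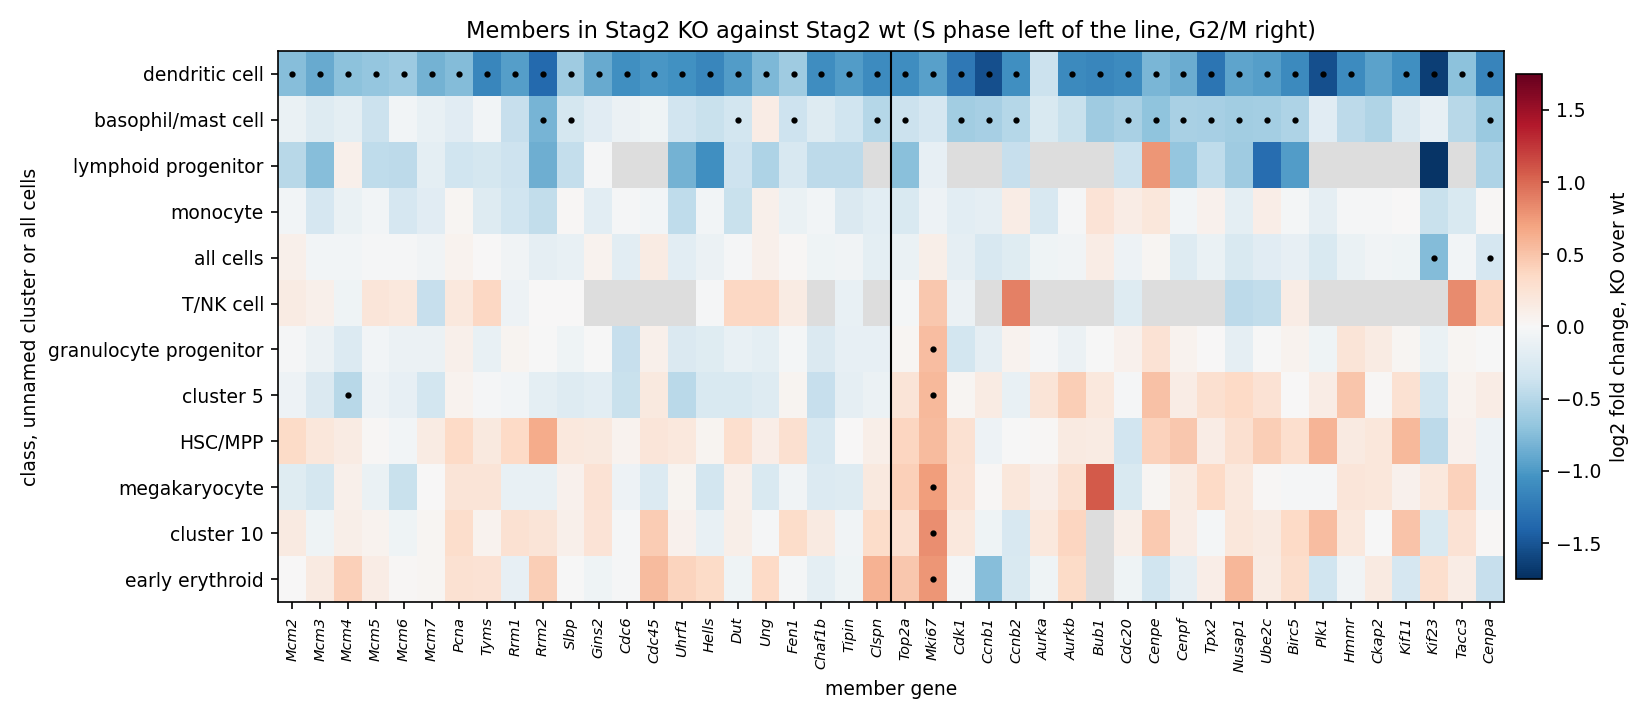
Log2 fold change (KO minus WT) of each of the 44 members, grouped by phase, in 9 named classes, over all cells and in clusters 5 and 10, with a dot where the adjusted p was below 0.05 and grey where a member was not tested. The dendritic cell-like class has 42 dots and the basophil/mast cell-like class 17, all lower in KO.

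A difference between classes was tested directly, by comparing each sample's log2 CPM in a class minus its mean over the other classes, with limma over the 4739 genes tested in all 9 named classes. Of the 24 members in that set, 16 S phase and 8 G2/M genes, all 24 fell more in the dendritic cell-like class than in the mean of the others, beside 8.06% of all genes. Their median difference was -0.89 on the log2 scale, against -0.02 for all genes, with a range of -1.31 to -0.51. The largest was Mki67 (-1.31, SE 0.15, adjusted p = 8.36e-07 by limma). In the basophil/mast cell-like class 6 members fell more, beside 8.5% of genes, 5 of them G2/M genes. In the HSC/MPP-like class 14 members had a higher KO effect than elsewhere, beside 3.04% of genes, with a median difference of 0.41. The mean of the others includes the dendritic and basophil/mast cell-like classes wherever another class is compared, so these higher values are relative to a mean that itself was lower in KO. Early erythroid-like cells had 4 such members, beside 0.57%, megakaryocyte-like cells 2, beside 0.485%, and T/NK cell-like cells 1, Dut, beside 1.6%.

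With the unnamed clusters 5 and 10 in place of the lymphoid progenitor-like and T/NK cell-like classes, 43 members could be compared. In that set 42 fell more in the dendritic cell-like class, beside 8.91% of genes, and 11 in the basophil/mast cell-like class, beside 7.41%. Higher effects than elsewhere were called for 11 members in the HSC/MPP-like class, beside 1.97% of genes, for 4 in cluster 10, beside 1.34%, for 3 in early erythroid-like cells, beside 0.388%, and for 1 in megakaryocyte-like cells, beside 0.21%. The members tested and the classes in the mean both differed between the 2 sets. Kif23, which was not in the smaller set, fell more in the dendritic cell-like class than in the others (-1.60, adjusted p = 1.46e-07 by limma).

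In the basophil/mast cell-like class 17 of 44 members were lower in KO, 12 G2/M and 5 S phase genes, beside 7.58% lower and 3.95% higher of 9829 genes. Median log2 fold changes were -0.53 for G2/M members and -0.23 for S phase members, against 0.01 for all genes. No member rose. The G2/M-positive share was 9.68, 7.36 and 9.22% in KO and 12.5, 13.9 and 19.5% in WT, without overlap, but unthinned the means were 14.9 and 17.1% and the samples overlapped. Depth moved with genotype in this class, with median UMIs of 3740 to 4145 in KO and 2047 to 3134 in WT, and thinning left out 48.4% of the WT3 cells. In its cluster 1 only 127 of 902 WT3 cells were scored, and 1 was G2/M-positive. The part of this loss in the WT3 share was not tested. The class's own 13 markers summed to 47530 to 52561 CPM in KO and 80145 to 89790 CPM in WT. Sums of the marker lists of other cell types moved too. The 21 HSC/MPP markers (Hoxb5 at 0) summed to 699 to 722 CPM in KO and 3911 to 4340 CPM in WT, the 16 T/NK cell markers to 577.5 to 678 and 1068 to 1280 CPM, and the 14 monocyte markers to 432.5 to 520 and 809 to 880 CPM. The 13 late neutrophil markers were higher in KO, at 547 to 793 against 326 to 425 CPM. The sums of the early erythroid, eosinophil, macrophage, megakaryocyte, plasma cell and stroma lists also did not overlap. The genotypes filled different clusters, with clusters 1, 9 and 24 almost all WT and clusters 2 and 11 almost all KO. Ifitm1, of the HSC/MPP list, was among the leading genes of cluster 1, and Cxcr2, of the late neutrophil list, among those of cluster 2. These sums thus include genes raised in clusters of the class itself, and how much of each sum they made up was not counted. The part of these differences in the result was not tested.

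Rrm2 led this class too, at 49.9, 58.5 and 53.0 CPM in KO and 90.3, 111 and 80.7 CPM in WT (log2 fold change -0.82, SE 0.12, adjusted p = 0.000225 by edgeR's quasi-likelihood test). Cenpa stood at 73.7, 70.5 and 85.9 CPM in KO and 115, 126 and 121 CPM in WT (log2 fold change -0.65, SE 0.09, adjusted p = 0.000233 by the same test). Both kept their call with the prefix covariate and in the XA samples alone. The next 4 by p lost theirs in both of those settings. They were Ube2c, at 73.7, 83.9 and 68.6 CPM in KO and 106, 119 and 115 CPM in WT (log2 fold change -0.60), and Birc5, at 85.2, 80.6 and 78.0 CPM in KO and 101, 126 and 123 CPM in WT (log2 fold change -0.53). The other two were Nusap1, a microtubule bundling protein, at 35.1, 31.8 and 29.1 CPM in KO and 43.5, 49.6 and 51.3 CPM in WT (log2 fold change -0.60), and Ccnb2, at 46.6, 48.5 and 48.5 CPM in KO and 62.8, 74.5 and 64.8 CPM in WT (log2 fold change -0.50). In each of these 6 genes the samples did not overlap.

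Among the remaining calls Cenpe fell by 0.70, Cdk1 by 0.60, Ccnb1 by 0.59, Tpx2 by 0.58, Cenpf by 0.57, Cdc20 by 0.56, Clspn by 0.50, Top2a by 0.37, Fen1 by 0.36, Dut by 0.32 and Slbp by 0.31 on the log2 scale. Slbp overlapped between genotypes. Kif23 did not pass here (30.2, 25.1 and 26.4 CPM in KO and 31.2, 31.8 and 28.1 CPM in WT). With the prefix covariate 3 members remained lower, beside 17 in the fit without it. The number of all genes called in the class also fell with that covariate, and the share of genes lower there was not counted. Of 55 other G2/M genes 16 fell, led by Lbr (-0.62), Spc24 (-0.65), Hmgb2 (-0.44) and Cdca3 (-0.54). Of 50 other S phase genes 8 fell, led by Blm, the Bloom helicase (-0.70), Asf1b (-0.63), Tk1 (-0.56) and Gmnn (-0.42). Of 31 control genes 3 fell, E2f1 (-0.62), Fbxo5 (-0.65) and Tfdp1 (-0.32), and Trp53 rose (0.34). These control gene counts stood close to the 7.58% lower and 3.95% higher of all genes tested in the class.

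Mki67 was the only member that rose in any unit, and it rose in 5. In cluster 10, led by Cd34, Adgrg1 and Plppr3, it stood at 97.9, 70.8 and 71.6 CPM in KO and 48.4, 37.5 and 54.3 CPM in WT (log2 fold change 0.81, SE 0.17, adjusted p = 0.0107 by edgeR's quasi-likelihood test). In early erythroid-like cells it stood at 84.0, 68.1 and 90.3 CPM in KO and 55.7, 33.8 and 55.8 CPM in WT (log2 fold change 0.77, SE 0.17, adjusted p = 0.0175 by the same test). In megakaryocyte-like cells it stood at 131, 120 and 117 CPM in KO and 63.3, 62.5 and 90.5 CPM in WT (log2 fold change 0.74, SE 0.15, adjusted p = 0.0127 by the same test). All 3 units were free of overlap.

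Smaller rises of Mki67 were called in 2 more units. In cluster 5, led by F13a1, Serpinf1, Slpi and Ms4a6c, it stood at 108, 125 and 79.0 CPM in KO and 78.8, 67.9 and 65.7 CPM in WT (log2 fold change 0.57, SE 0.14, adjusted p = 0.0323 by edgeR's quasi-likelihood test). In granulocyte progenitor-like cells it stood at 53.9, 54.9 and 50.2 CPM in KO and 33.3, 30.1 and 42.7 CPM in WT (log2 fold change 0.53, SE 0.12, adjusted p = 0.0319 by the same test). In these 5 units 1 of 43 or 44 tested members was higher, beside 0.373% of genes in cluster 10, 0.655% in early erythroid-like, 0.371% in megakaryocyte-like, 0.718% in cluster 5 and 0.573% in granulocyte progenitor-like cells. All 5 calls were lost with the prefix covariate and in the XA samples alone, and all but that in cluster 10 also by DESeq2. Those in early erythroid-like and megakaryocyte-like cells were lost as well at another clustering resolution (0.5 and 2.0) and with cell cycle genes kept in the clustering. With one sample left out they passed in 4 of 6 cases in cluster 10 and megakaryocyte-like cells, 3 in early erythroid-like cells, 2 in cluster 5 and 1 in granulocyte progenitor-like cells.

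The other G2/M members did not pass in these 5 units, although the G2/M sum was without overlap higher in KO in cluster 5 and 18 or 19 of 22 G2/M members had positive log2 fold changes in megakaryocyte-like cells and cluster 5. The G2/M-positive share overlapped in each of the 5 units, with means of 25.4% in KO and 21.4% in WT in cluster 10, 12.77 and 11.03% in early erythroid-like, 21.6 and 21.4% in megakaryocyte-like, 35.7 and 32.6% in cluster 5 and 24.4 and 22.1% in granulocyte progenitor-like cells. Mcm4, a helicase subunit, was lower in cluster 5, at 42.3, 50.4 and 42.7 CPM in KO and 66.7, 60.0 and 63.7 CPM in WT (log2 fold change -0.49, SE 0.12, adjusted p = 0.0483 by edgeR's quasi-likelihood test), beside 1.21% of genes lower there, and kept its call in 1 of 6 cases with a sample left out. DESeq2, the prefix covariate and the XA samples alone did not call it. In cluster 5 the S phase sum was lower in KO, at 2331, 2278 and 2302 CPM against 2476, 2519 and 2556 CPM in WT. Its G2/M sum was higher, at 1388, 1472 and 1349 CPM in KO against 1198, 1201 and 1222 CPM in WT. In that cluster the 12 granulocyte progenitor markers summed to 14888 to 15512 CPM in KO and 10262 to 13869 CPM in WT, and the part of this in the phase sums was not tested. Of the pathway lists Tuba1c, an alpha tubulin, rose in cluster 5 (log2 fold change 0.49) and Myc fell in cluster 10 (-0.51).

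**Figure D5:**
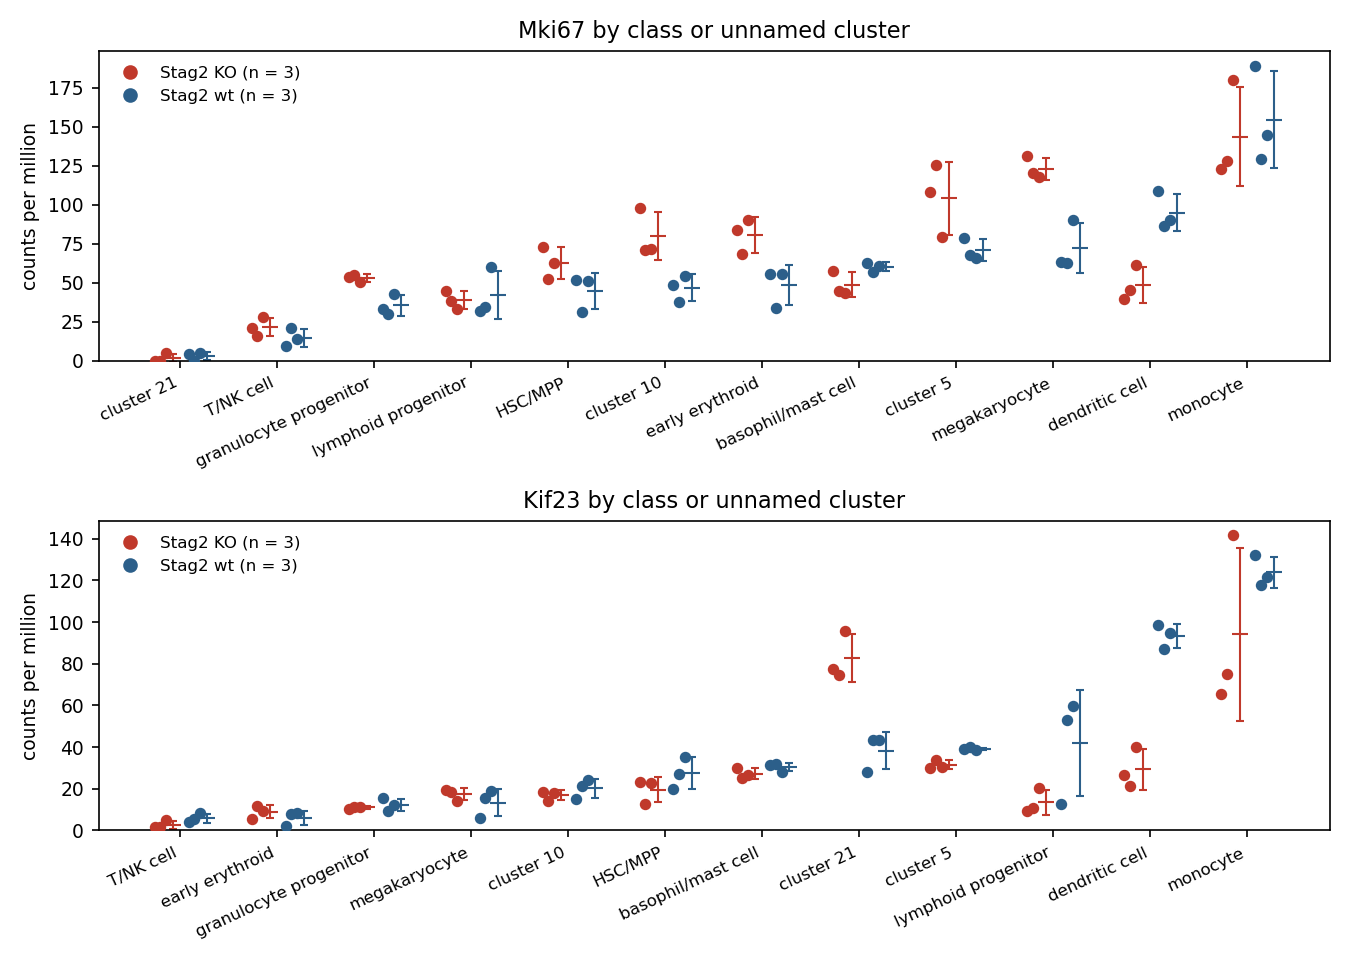
Mki67 and Kif23 (CPM of the class sum, mean ± SD and one point per sample) in each class or cluster, ordered by the WT mean. Mki67 is lower in KO in the dendritic cell-like class, at 39.4 to 61.3 against 86.1 to 108 CPM, and above WT in megakaryocyte-like cells, at 117 to 131 against 62.5 to 90.5 CPM.

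In 5 units no member passed edgeR's quasi-likelihood test or DESeq2. At an unadjusted p under 0.05, edgeR had 2 members lower and 8 higher in the HSC/MPP-like class, 5 lower in monocyte-like, 9 lower and 1 higher in lymphoid progenitor-like, 3 higher in T/NK cell-like cells and 1 higher in cluster 21. The share of all genes at that unadjusted threshold was not counted, and the percentages of genes given below are by adjusted p. In the HSC/MPP-like class, cells with stem and multipotent progenitor markers, 37 of 44 members had positive log2 fold changes and both medians were 0.18, against 0.00 for all genes, with 0.522% of genes higher and 1.6% lower. Rrm2 stood at 31.6, 36.9 and 47.4 CPM in KO and 17.2, 27.6 and 26.2 CPM in WT (log2 fold change 0.65, adjusted p = 0.0889 by edgeR's quasi-likelihood test). Dut stood at 283, 315 and 308 CPM in KO and 280, 243 and 217 CPM in WT (0.30), Top2a at 200, 193 and 225 CPM in KO and 168, 133 and 180 CPM in WT (0.37), and Mki67 at 73.1, 52.6 and 62.7 CPM in KO and 51.6, 31.3 and 51.1 CPM in WT (0.56). In all 4 genes KO lay above WT in every sample, none of them past the test. The S phase sum was 1810, 1949 and 1984 CPM in KO and 1671, 1651 and 1565 CPM in WT, also without overlap. The G2/M-positive share overlapped, at 16.12, 11.52 and 15.03% in KO and 8.11, 10.3 and 13.3% in WT. Outside the members, DNA ligase Lig1 (log2 fold change 0.58, adjusted p = 0.0054) and the histone H2afx (0.52, adjusted p = 0.0253 by edgeR's quasi-likelihood test) rose in this class. Its own 21 markers summed to 1973 to 2035 CPM in KO and 2713 to 2723 CPM in WT, and their part in these values was not tested.

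In monocyte-like cells all 44 members were tested and none passed, where 2.2% of genes were lower and 1.2% higher. Rrm2 stood at 91.7, 90.3 and 120 CPM in KO and 129, 149 and 128 CPM in WT (log2 fold change -0.43, adjusted p = 0.12 by edgeR's quasi-likelihood test), without overlap. Dut stood at 175, 178 and 246 CPM in KO and 272, 263 and 251 CPM in WT (-0.39). Kif23 had a log2 fold change of -0.39 and the centrosome protein Tacc3 one of -0.27. The G2/M-positive share was 26.6, 30.6 and 39.5% in KO and 37.3, 29.4 and 52.8% in WT, which overlapped, at median depths of 5662 and 2769 UMIs. Thinning left out 7.32 to 14.9% of KO cells, 21.4% of WT1, 21.2% of WT2 and 50.2% of WT3 cells. In cluster 14 of this class 28 of 303 WT3 cells were scored and 0 were G2/M-positive. The part of this in the shares was not tested.

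Lymphoid progenitor-like cells had 31 testable members and none passed, where 0.687% of genes were lower and 0.305% higher. Of these members 29 had negative log2 fold changes, with medians of -0.44 for S phase and -0.58 for G2/M members, against -0.01 for all genes. Mean S phase UMIs per thinned cell were 1.48 to 1.86 in KO and 2.25 to 3.03 in WT, without overlap. The S phase and G2/M sums in CPM and the G2/M-positive share overlapped. Kif23 stood at 9.31, 10.8 and 20.5 CPM in KO and 12.8, 53.1 and 59.9 CPM in WT (log2 fold change -1.72, adjusted p = 0.131 by edgeR's quasi-likelihood test), with WT1 inside the KO range. Birc5 stood at 44.7, 43.4 and 28.2 CPM in KO and 55.3, 69.0 and 97.7 CPM in WT (-0.97). Hells stood at 48.4, 32.5 and 41.1 CPM in KO and 48.9, 141 and 72.1 CPM in WT (-1.07), and Mcm3 had a log2 fold change of -0.74. This class held 31 to 155 cells per sample. In T/NK cell-like cells 26 members were tested, with 1.5% of genes lower and 1.29% higher, and Dut (0.36), Mcm7 (-0.41), Ccnb2 (0.88) and Tacc3 (0.83) had the smallest p of their lists without passing. In cluster 21, where 0.264% of genes were lower and 0.22% higher, 4 members were testable. Kif23 stood there at 77.6, 74.7 and 96.0 CPM in KO and 28.2, 43.6 and 43.3 CPM in WT (log2 fold change 1.17, adjusted p = 0.276 by edgeR's quasi-likelihood test), on 56 UMIs in all 6 samples.

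S phase-only shares without overlap were seen in 4 units, all lower in KO. Besides the dendritic cell-like class they were cluster 5 (43.1 ± 5.94% in KO and 52.9 ± 2.96% in WT), megakaryocyte-like cells (41.0 ± 1.13 and 49.5 ± 3.90%) and monocyte-like cells (19.9 ± 1.57 and 24.5 ± 3.06%; SD, n = 3 each). The difference in each of these 3 units turned direction at another thinning depth or without thinning.

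By level, monocyte-like and dendritic cell-like cells led in WT for Mki67, Top2a and Ccnb1. Mki67 averaged 154 CPM (130 to 189) in WT monocyte-like cells and 94.9 CPM (86.1 to 108) in dendritic cell-like cells, and these 2 did not overlap. Megakaryocyte-like cells came next at 72.1 CPM (62.5 to 90.5) and overlapped with dendritic cell-like cells. Below them cluster 5 (65.7 to 78.8 CPM), the basophil/mast cell-like class (56.9 to 62.8 CPM) and early erythroid-like cells (33.8 to 55.8 CPM) were separate from each other. Early erythroid-like cells, cluster 10, HSC/MPP-like, lymphoid progenitor-like and granulocyte progenitor-like cells overlapped with their neighbours in the order. T/NK cell-like cells averaged 14.6 CPM and cluster 21 averaged 2.99 CPM. In KO the order changed, with megakaryocyte-like cells at 123 CPM (117 to 131) next to monocyte-like cells at 144 CPM (123 to 180) and dendritic cell-like cells at 48.6 CPM (39.4 to 61.3).

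Top2a averaged 397 CPM in WT monocyte-like and 298 CPM in WT dendritic cell-like cells, which overlapped, and 329 and 140 CPM in KO. Ccnb1 averaged 51.5 and 48.0 CPM in the same 2 classes of WT, whose samples overlapped, and 46.1 and 16.2 CPM in KO. Mcm5, of the replicative helicase, had another order, with cluster 5 at 133 CPM (128 to 138) in WT ahead of cluster 10 at 110 CPM (99.5 to 117) and monocyte-like cells at 108 CPM (87.0 to 123), which overlapped with each other. Dendritic cell-like cells ranked 7 of 12 for Mcm5, at 68.7 CPM in WT and 43.0 CPM in KO.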

How the data were processed

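The authors deposited 1 table per sample, of raw UMI counts (whole numbers, cells by gene symbols, no normalization). They come from an aligner, a counter, a cell filter and a genome build not given in the sources used here. Symbols were placed on GRCm38 by name. A gene missing from a table was set to 0.

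The members, gene lists and marker lists were chosen with earlier results of these data known. Cells with 500 genes or more and at most 20% mitochondrial counts were kept (none exceeded it), and the cells with the highest simulated-doublet scores were removed at 0.8% per 1000 cells (47 to 367 per sample). This left 2385 to 6407 cells per sample. Each pair of libraries shared 11 to 48 barcodes. Clustering used 2000 variable genes without the cell cycle lists and clustered histone genes, 30 principal components, 15 neighbours and Leiden resolution 1.0, with no integration, and gave 32 clusters. The deposited cluster numbers were used only for comparison (adjusted Rand index 0.373 to 0.459). A cluster took a class name from at least 3 markers and 1 in 3 of a list raised 2-fold at 20 CPM or more.

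For UMIs summed per sample and unit, edgeR's quasi-likelihood test was used with filterByExpr and TMM scaling (Benjamini-Hochberg over all genes of the unit, threshold 0.05), and class differences with limma on log2 CPM with a prior count of 2. Replicate numbers follow accession order. Nothing in the labels beyond the design text says which animal a sample is, so p-values measure the spread between these samples. No p is given for scores or shares, which sum the members. The tests were checked on simulated counts. Per-sample values are printed for members past the threshold (in each unit at most 6 with the smallest p, or 2 per phase where none passed), and Mki67, Top2a, Mcm5 and Ccnb1 in any case. Some members, Mki67, Top2a and Ube2c among them, overlap an annotated gene on the other strand, and the counter's strand setting is not given. Intervals are Clopper-Pearson and cover counting error only.

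The fits were repeated with each sample left out, in the XA samples alone, with the title prefix as a covariate, with no low-count filter, with RLE factors and with DESeq2, and the classes and shares with Leiden resolutions 0.5 and 2.0, doublets or cell cycle genes kept, thinning to 1000 or 4000 UMIs or none, and thresholds of 2 or 5 UMIs. Chosen after seeing the data were the second set of classes and the separate fits of the dendritic clusters. The software was R 4.3.3 (limma 3.58.1, edgeR 4.0.16, DESeq2 1.42.0) and Python 3.11.15 (leidenalg 0.10.2, igraph 0.11.9, scikit-learn 1.9.0, matplotlib 3.10.9, pandas 2.3.3, scipy 1.17.1, numpy 2.4.6), with seed 1.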

Additional observations from a re-analysis of the deposited data

Results flagged for a closer look

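For 19 pairs of a named member and a class, the KO effect in the class differed from its mean over the other classes by limma's test of the difference itself (Benjamini-Hochberg over 4739 genes). Each value below is that difference on the log2 scale, over 3 KO and 3 WT samples.

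In the dendritic cell-like class 8 of these members fell more than elsewhere. Mki67 differed by -1.31, Rrm2 by -1.18, Ccnb2 by -1.11, Top2a by -1.04, Cenpa by -1.003, Dut by -0.93, Tipin by -0.75 and Mcm5 by -0.59. The helicase subunit Mcm5 thus had the smallest difference of the 8 and the Ki-67 gene the largest.

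In the basophil/mast cell-like class 6 fell more than elsewhere, Mki67 by -0.57, Rrm2 by -0.51, Ccnb2 by -0.46, Cenpa by -0.45, Nusap1 by -0.45 and Birc5 by -0.41. Mki67 itself did not pass the test of KO against WT in this class. Its samples overlapped there, at 43.1 to 57.7 CPM in KO and 56.9 to 62.8 CPM in WT. The mean it is compared with includes early erythroid-like, megakaryocyte-like and granulocyte progenitor-like cells, where it rose, and the dendritic cell-like class, where it fell.

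Higher KO effects than elsewhere were found for Mki67 in early erythroid-like (0.60) and megakaryocyte-like cells (0.68), and for Top2a in early erythroid-like (0.71), megakaryocyte-like (0.71) and HSC/MPP-like cells (0.63). Top2a itself passed no test of KO against WT in these 3 classes, and the mean it is compared with includes the dendritic cell-like class, where it fell.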

How the results depend on the processing

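No paired analysis was possible because replicate numbers follow accession order and pair no samples. The XA samples alone hold 1 WT sample, which is assumed to vary like the KO samples. With the prefix as a covariate, XG and XN joined, the genotype effect also compares the KO samples with WT1. WT2 and WT3 then add only to the estimate of spread. Over all cells 1379 genes were called, 735 with the title prefix as a covariate, 508 in the XA samples alone and 773 to 1440 with one sample left out (773 without KO1, 836 without KO3, 820 without WT2). The 2 members lower became 1 with the prefix, 1 in the XA samples alone and 1 to 2 with one sample left out. In the dendritic cell-like class 997 genes became 563 by DESeq2, 555 with the prefix, 482 in the XA samples alone, 333 with cell cycle genes kept in the clustering and 614 to 1000 with one sample left out (614 without KO1, 656 without WT3). Its 42 lower members became 21 at resolution 0.5, 7 with cell cycle genes kept, and 15, 26, 2 and 0 in clusters 13, 16, 18 and 19 alone. Fewer members could be tested in clusters 13, 16 and 19, and the cause was not tested otherwise. Its log2 ratio of G2/M-positive shares, -1.53, became -0.99 at resolution 0.5. In the basophil/mast cell-like class 1133 genes became 744 by DESeq2, 336 with the prefix and 299 in the XA samples alone, and 17 lower members became 11, 3 and 2, and 10 to 17 with one sample left out (11 without KO3, 10 without WT2). Its log2 share ratio, -0.81, became -0.33 at 1000 UMIs and -0.20 without thinning. Between classes, the set with 43 members gave 42 lower in dendritic cell-like cells in place of 24 and 11 in basophil/mast cell-like cells in place of 6. That set changed both the members tested and the classes in the mean, and the cause was not tested. S phase-only shares turned direction without thinning in cluster 5 (0.15) and monocyte-like cells (0.46) and at 1000 UMIs in megakaryocyte-like cells (0.0092, log2 KO over WT). Of the values of single members and single shares under an alternative, 608 kept direction and side of the threshold or moved by less than the spread, 84 moved further and 60 lost their call.

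The low-count filter left 31 members in the lymphoid progenitor-like class, 26 in the T/NK cell-like class and 4 in cluster 21. Depth limits the thinned shares of WT3, of whose cells 28.3% were left out.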
